A study of Homo sapiens with 21 samples.

Results

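This account covers RUNX1 binding at 5 genes of the ETS family of transcription factors, ETS1, FLI1, ERG, ETV6 and ELF1, in Jurkat cells, a line established from a human T-cell leukaemia. The members were every peak whose summit, its highest point, lay in 1 of 5 hg19 windows fixed by position alone. They were ETS1, chr11:128318000-128480000, FLI1, chr11:128546000-128693000, ERG, chr21:39740000-40044000, ETV6, chr12:11792000-12058000, and ELF1, chr13:41496000-41645000. Of 791439 peaks in 14 lists, 1784 were in these windows, and they fell into 437 of 190855 regions. A region joins summits of different lists that lie close together, and a list holds a region when it has a summit there.

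Chromatin immunoprecipitation was done with antibodies to short tags knocked into RUNX1 in untreated cells, fixed for 15 min. In R232fs and Y287X clones (truncating changes) and G365R clones (an amino acid change), anti-HA precipitated the mutant protein and anti-TY1 the wild-type protein of the same cells. In WT cells, labelled as parental, both tags marked wild-type protein. The track names of the WT lists carry the residue number of G365R, and the labels do not say whether these cells come from the editing that gave the G365R clones. Each mutant genotype had 2 single clones, each with an HA and a TY1 list, and WT had 1 of each, so differences between WT and any other genotype were not tested, and single clones can differ for reasons other than the RUNX1 change. Gene expression, exon positions and start sites are not analysed here.

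RUNX1 is a DNA-binding factor of blood cell development that acts with the partner subunit CBFB. ETS factors share a DNA-binding domain of their own, and RUNX and ETS factors are known to occupy many blood cell enhancers side by side, ETS1 and RUNX1 binding cooperatively. ETS1 acts in T-cell development and FLI1 and ERG in blood stem cells. ETV6 is a repressor needed for bone marrow blood formation and a fusion partner of RUNX1 in childhood leukaemia, and ELF1 is a lymphocyte activator.

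The 14 lists held 30563 to 86433 peaks, and 86 to 181 of them were in the 5 windows. Library depth is unknown, since a peak list does not hold it. The R232fs and Y287X lists differed in kind from the G365R and WT lists. The highest −log10 p of a list was 2673 to 5706 in R232fs and Y287X, and 513 to 665 in G365R and WT. A difference between these sets of genotypes therefore cannot be told apart from the kind of list.

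All 5 windows held more RUNX1 peaks per unit length than the genome. The peak density of a list was a median of 9.15 times its genome-wide density in the ETV6 window, 7.21 times in ETS1, 7.03 times in FLI1, 4.61 times in ERG and 3.81 times in ELF1. Their peaks were of middling strength, with a median percentile of 54.2 among the peaks of their list by fold enrichment (the authors' peak caller's ratio of signal to background). Of the 437 regions, 21 (4.81%) were in all 14 lists, against 5.92% of all regions, and 163 (37.3%) were in a single list, against 42.3%. By gene, 11 of the 21 were in ETV6, 5 in FLI1, 3 in ERG and 1 each in ETS1 and ELF1.

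In R232fs, whose HA lists were the longer, HA lists also had more peaks than TY1 lists in each window, with means of 59.0 ± 18.4 and 32.0 ± 2.83 at ETV6 (SD, n = 2 each) and 29.5 ± 0.707 and 16.5 ± 0.707 at ETS1. In G365R, whose HA lists were the shorter, the means were lower with HA in each window, with 39.0 ± 8.49 against 55.5 ± 13.4 at ETV6. The ELF1 window had 7 to 15 peaks in every list.

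**Figure D1:**
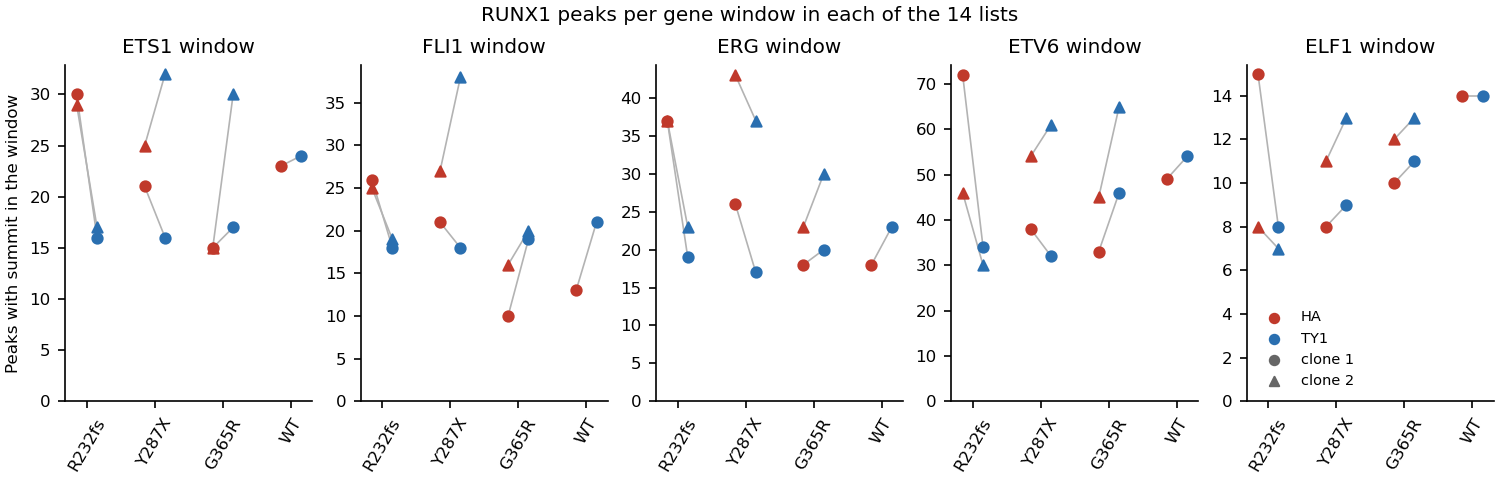
Number of peaks with a summit in each gene window (vertical axis) by genotype, 1 point per list, red for HA and blue for TY1, with a grey line joining the lists of a clone. ETV6 held 30 to 72 peaks a list and ELF1 7 to 15, and both R232fs clones had more peaks with HA in all 5 windows.

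Per 10000 peaks of its list, the windows' share was 28.1 and 36.3 in the G365R HA lists and 19.7 and 25.6 in the G365R TY1 lists. HA was thus higher in both clones, by a mean of 9.58 ± 1.66 (SD of 2 clone differences), but by 0.533 among peaks of fold 5 or more. In Y287X the share was 21.97 and 23.7 with HA and 18.5 and 22.2 with TY1, a mean difference of 2.48 ± 1.41 with HA higher in both clones. R232fs gave 23.2 and 16.8 with HA and 23.7 and 16.2 with TY1, so the clones differed more than the tags. The R232fs HA share was the higher in both clones with lists cut to equal length, at 29.4 and 19.6 against 27.2 and 17.996, and among peaks of fold 5 or more, at 29.4 and 22.1 against 22.98 and 18.8. WT had 31.2 with HA and 22.9 with TY1, so the WT cells, in which both tags mark wild-type protein, had a difference of the same direction as G365R.

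**Figure D2:**
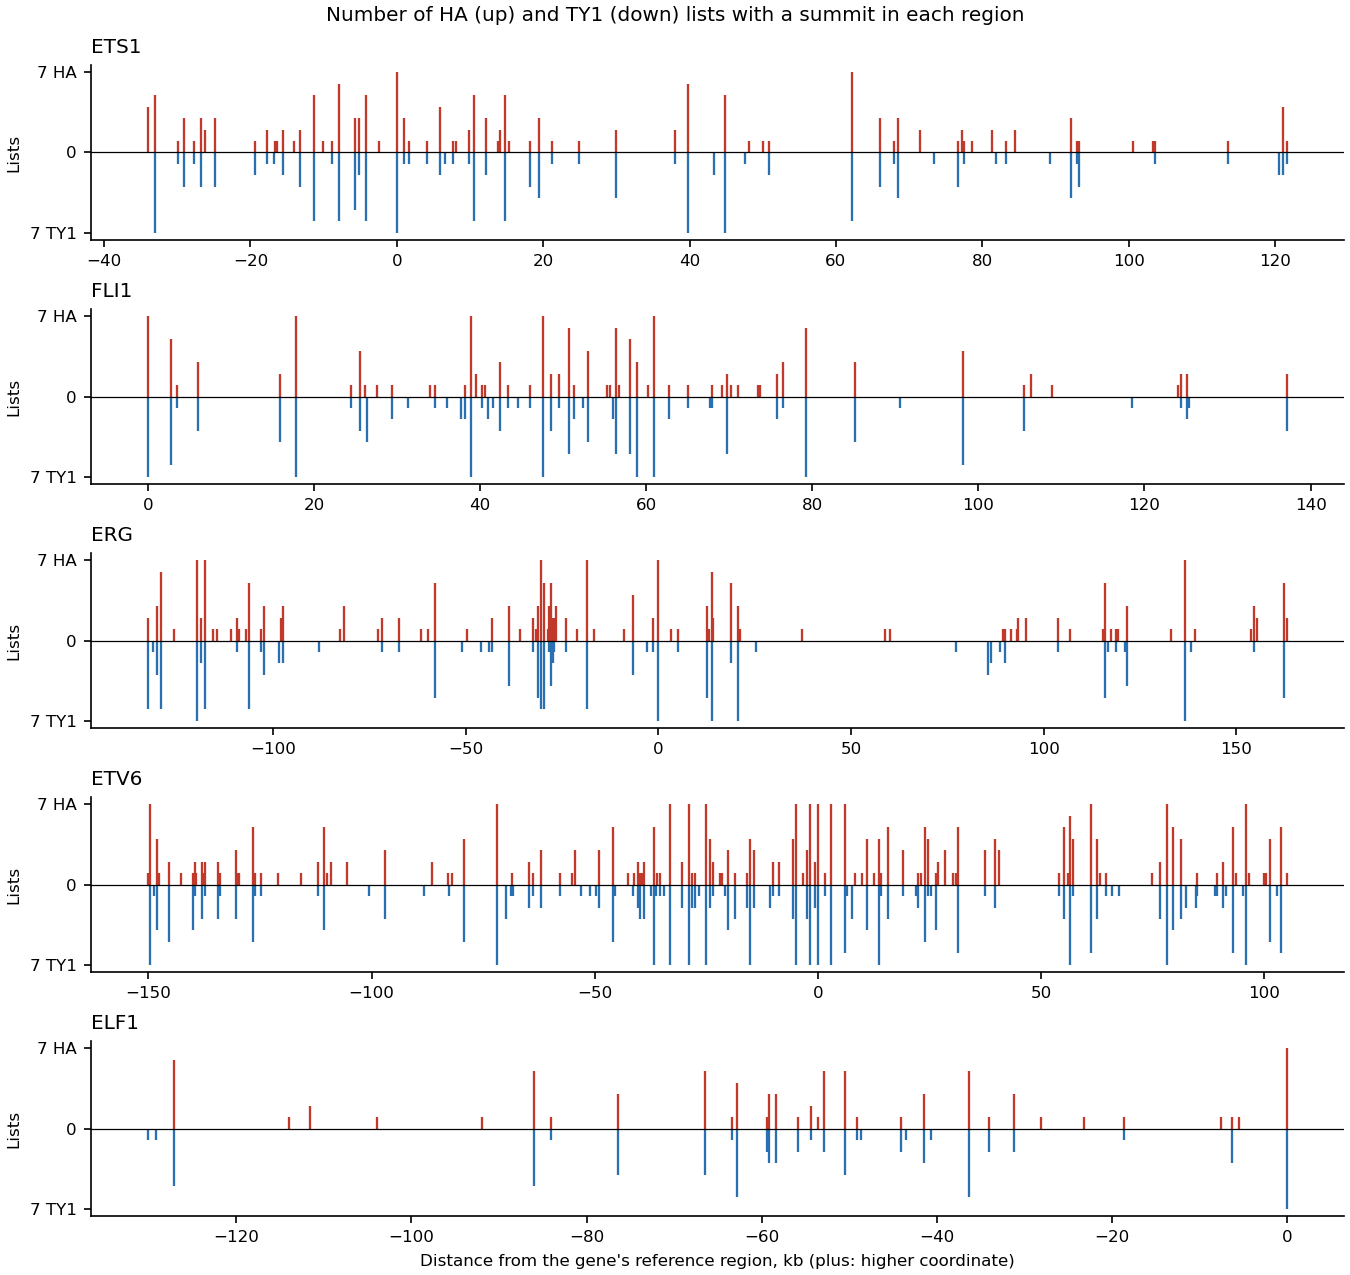
Number of HA lists (red, up) and TY1 lists (blue, down), out of 7 each, with a summit in each region, by distance in kb from the region held by all 14 lists with the highest median fold of each gene. Regions in all lists stand between many regions held by 1 or 2 lists, and 11 of the 21 shared regions are in ETV6.

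By median fold over the lists, ETV6 carried the strongest RUNX1 region of the 5 genes, though in the 4 lists of the second R232fs and Y287X clones the leading FLI1 region was stronger. At chr12:11951912-11952283 fold enrichment was 51.04 and 17.1 in the R232fs HA lists and 87.8 and 24.7 in the R232fs TY1 lists. Y287X gave 41.1 and 33.4 with HA and 48.3 and 55.8 with TY1, and G365R gave 43.6 and 47.4 with HA and 51.97 and 54.4 with TY1. The WT lists had 57.6 and 53.9. It was the strongest peak of the ETV6 window in all 14 lists and lay between the 98.0 and 99.98 percentiles of its list. The lowest values were those of R232fs clone 2 under both tags.

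The next ETV6 region of all 14 lists, chr12:12047789-12048142, showed the widest gap between clones of the 21 shared regions. Its fold was 37.2 with HA and 32.3 with TY1 in R232fs clone 1, but 7.38 and 7.28 in clone 2. Elsewhere it ran from 14.7 in G365R HA clone 1 to 31.7 in WT TY1. Both tags showed the gap, the mutant and the wild-type protein alike, with clone 1 at 5.05 times clone 2 by HA and 4.44 times by TY1. Across all 11291 regions of all 14 lists, the median ratio of the same lists was 0.868 and 0.740. Ranked within each list and expressed as normal scores (1 unit is 1 SD of a list's scores), clone 1 was higher by 2.06 and 2.05, and 0.531% of the 11291 regions differed as far in that direction in both tags. At the leading ETV6 region the same scores differed by 1.28 and 1.33, which 3.22% of regions matched. These shares are descriptions of a gap chosen after its values were seen.

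FLI1 had the region with the highest single fold of the 5 genes. At chr11:128547991-128548269 the fold was 14.4 and 19.1 with HA and 30.8 and 37.7 with TY1 in R232fs. Y287X gave 25.6 and 52.96 with HA and 39.04 and 98.8 with TY1. The fold in G365R was 17.5 and 16.1 with HA and 20.2 and 22.4 with TY1, and WT had 25.6 and 29.3. TY1 exceeded HA in all 7 clones, the WT cells included, and Y287X clone 2 was the highest under each tag. A higher TY1 fold was the rule in these lists: HA was the higher in 4.45% to 39.0% of all shared regions, depending on the clone. By rank within the list, HA was lower in 5 of the 7 clones.

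The second FLI1 region, chr11:128608904-128609249, had 11.6 and 10.4 with HA and 12.3 and 17.6 with TY1 in R232fs. In Y287X the fold was 10.5 and 14.7 with HA and 14.9 and 24.2 with TY1, and in G365R 6.68 and 6.37 and 10.7 and 8.88. WT had 6.92 with HA and 11.9 with TY1. TY1 was again higher in all 7 clones by fold, while by rank HA was higher in 1 of 7. The leading FLI1 region was the strongest of its window in 13 lists, and in R232fs HA clone 1 it was chr11:128595498-128595857, at 15.6.

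ETS1 had 1 region in all 14 lists, chr11:128352396-128352812, which was the strongest of its window in 13. Its fold was 21.6 and 11.4 with HA and 16.2 and 9.704 with TY1 in R232fs, and 18.1 and 16.8 and 11.7 and 19.1 in Y287X. G365R had 7.61 and 9.95 with HA and 16.96 and 16.6 with TY1, and WT 12.5 and 15.5. HA was the higher in both R232fs clones and Y287X clone 1, and TY1 in Y287X clone 2, both G365R clones and WT. The G365R HA values were the lowest of the Y287X, G365R and WT lists, and the G365R tags did not overlap. A higher fold with TY1 was general in G365R, where HA was the higher in 4.45% and 9.73% of all shared regions in clones 1 and 2.

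A weaker ETS1 region close by, chr11:128346695-128347013, had summits in all 6 G365R and WT lists, at folds of 4.93 to 13.6. Of the R232fs and Y287X lists only the TY1 lists of clone 1 had it, at 16.5 and 4.96. In R232fs TY1 clone 1 it outranked the leading region. The HA lists of those clones had a peak that overlapped it with a summit in the neighbouring region chr11:128347309-128347537, so a part of this pattern was in summit position. In R232fs and Y287X clone 2 no peak overlapped it.

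ERG had 3 regions in all 14 lists. At chr21:39878620-39878892 the fold was 13.2 and 15.9 with HA and 11.5 and 14.2 with TY1 in R232fs, 7.05 and 12.2 and 8.22 and 16.8 in Y287X, and 7.47 and 6.502 and 10.6 and 11.7 in G365R. WT had 7.07 and 9.72. R232fs clones were the only ones with a higher fold under HA. The other leading ERG region, chr21:40015363-40015713, ran from 5.15 in WT TY1 to 14.4 in Y287X TY1 clone 2, and the 2 WT lists were the lowest.

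The strongest ERG region in 9 lists was chr21:39848139-39848638, with a median fold of 13.7 over the 13 lists that had it. Only WT TY1 lacked a summit there, and a peak of that list overlapped it. Close to it, chr21:39850723-39851045 had a summit in both tags of R232fs and Y287X clone 1 and in 5 of the 6 G365R and WT lists, while clone 2 of R232fs and Y287X had its 4 summits in the adjoining region chr21:39851175-39851426. Peaks of all 10 other lists overlapped that adjoining region.

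ELF1, with 37 regions, had no strong region common to all lists. Its 1 region in all 14, chr13:41634782-41635103, had folds of 4.67 and 5.403 with HA and 3.39 and 5.25 with TY1 in R232fs. Y287X gave 3.42 and 4.88 and 3.36 and 5.39, G365R 2.55 and 2.68 and 3.63 and 3.38, and WT 2.17 and 2.76. These were the lowest folds of the leading regions, at a median percentile of 37.8. By rank within the list HA was higher in all 7 clones, WT included.

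The strongest ELF1 peak was at chr13:41548829-41549076 in 6 lists and at chr13:41571908-41572332 in 4. The former was in 10 lists, at 9.96 and 8.88 in R232fs clone 1 and 3.496 and 5.19 in Y287X clone 1. In G365R it had 7.38 and 4.27 with HA and 10.5 and 8.49 with TY1, and in WT 6.08 and 14.3. No peak of R232fs clone 2 or Y287X clone 2 overlapped it.

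**Figure D3:**
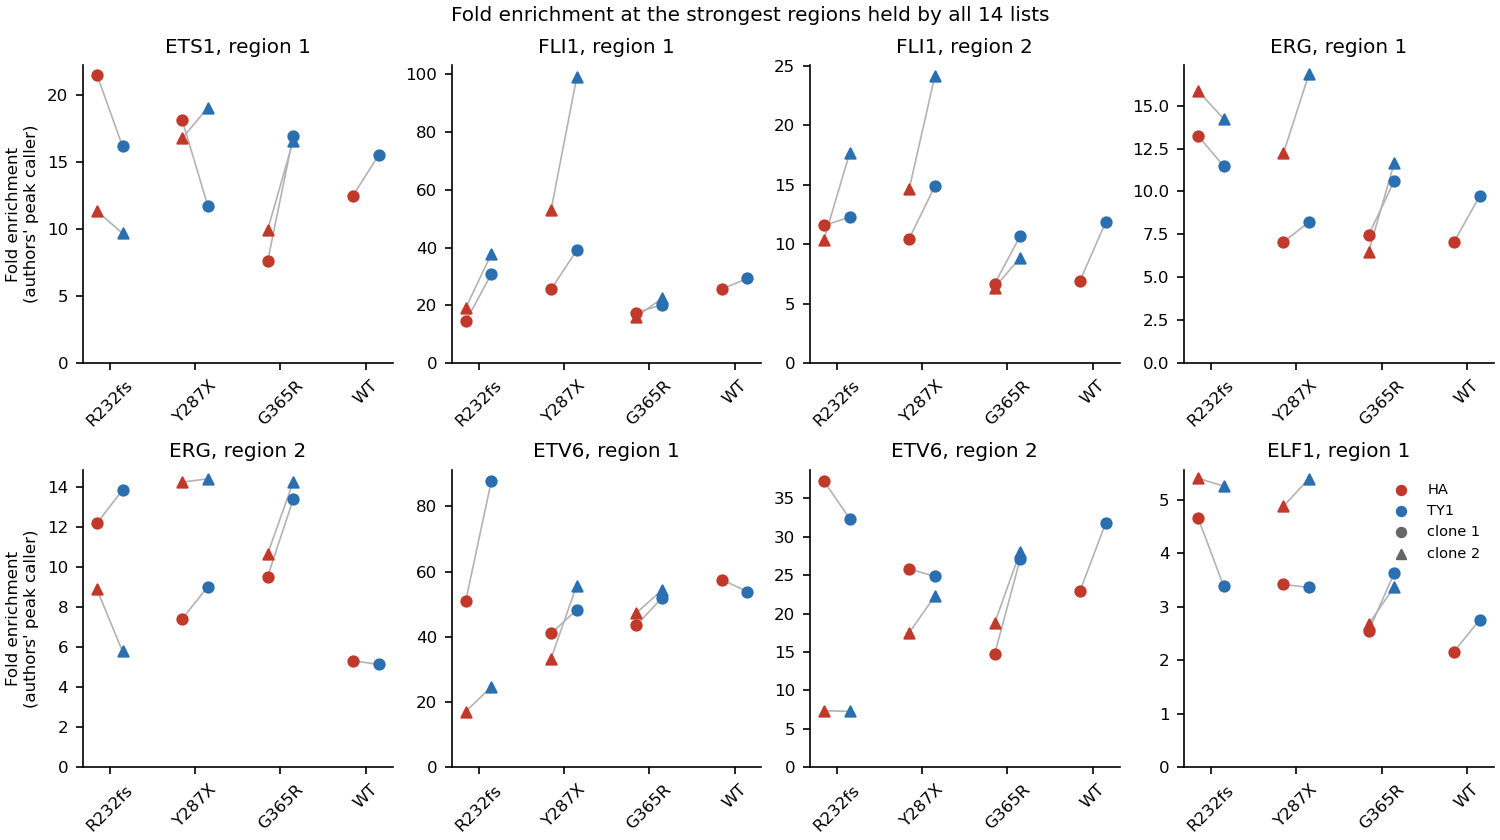
Fold enrichment (vertical axis, from the authors' peak caller) at the 8 leading regions held by all 14 lists, by genotype, red for HA and blue for TY1, with a line joining the lists of a clone. At both FLI1 regions TY1 is above HA in all 7 clones, and at the second ETV6 region R232fs clone 2 is at 7.38 with HA and 7.28 with TY1.

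The absence of that ELF1 region from both second clones was shared by a region in each of 3 other genes. Present in all 10 other lists and in none of the 4 lists of R232fs clone 2 and Y287X clone 2 were chr11:128605961-128606317, chr12:11825221-11825884 (which peaks of Y287X clone 2 overlapped) and chr21:40041041-40041427 besides it, 4 of 437 regions against 0.369% of all regions. At the FLI1 region the 10 folds ran from 5.91 to 15.1, above the median fold of their lists. The pattern was chosen after its values were seen. The reverse, a region in those 4 lists and no other, occurred at the ERG region above alone, against 0.670% of all regions.

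With the genotypes taken apart, the question was which regions one form of RUNX1 had and the other lacked in the same cells. In R232fs 13 of 259 regions had a summit in both HA lists but in no TY1 list, against 5.91% of all regions, and 1 was in both TY1 lists alone, against 0.401%. These shares are close to the background, and HA lists were the longer in R232fs. Y287X had 11 of 274 with HA alone, against 1.13%, and 2 with TY1 alone, against 2.00%. G365R had 6 of 213 with HA alone, against 0.579%, and 19 with TY1 alone, against 18.9%. In WT, with 1 list per tag, 37 of 172 regions were in the HA list only, against 9.67%, and 56 in the TY1 list only, against 43.1%. Windows of the ETS genes thus had a larger share of regions with HA alone than the genome in Y287X, G365R and WT, also where both tags mark wild-type protein. Among peaks of fold 5 or more the WT share was 4.44% (2 of 45), against 3.4%. With lists cut to equal length it was 41.9%, against 21.8%.

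Regions in all 4 lists of a genotype were 41 in R232fs, against 19.9% of all its regions, 49 in Y287X, against 26.0%, and 49 in G365R, against 24.9%. As shares of the windows' regions these were 15.8%, 17.9% and 23.005%. Regions in both WT lists were 79, or 45.9%, against 47.2%.

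The median fold of an HA list was 3.48 to 4.27, and the HA-only regions named here had folds of 3.46 to 6.16. In R232fs the one with the highest median fold in each gene was chr11:128327598-128327962 for ETS1, at 4.88 and 5.98, chr12:11813800-11814236 for ETV6, at 5.49 and 3.59, chr13:41603575-41603869 for ELF1, at 4.81 and 3.46, and chr21:39974132-39974355 for ERG, at 3.82 and 3.79, with none in FLI1. Of these the ERG region was in no other list. Y287X had chr11:128326289-128326561 at 4.37 and 3.62 in the ETS1 window, again in no other list, and chr12:11980446-11980724 at 4.59 and 5.104 in ETV6. In G365R the FLI1 region chr11:128587448-128587735, at 6.16 and 5.86, had a summit in no other list of the study. Close to it lay chr11:128586880-128587135, which all 14 lists held. The part of summit position in this pattern was not tested.

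With TY1 alone, G365R had chr11:128574388-128574697 at 4.02 and 4.697 in FLI1, which WT TY1 also had, at 5.95, and WT HA did not. The G365R TY1-only region of ELF1, chr13:41571908-41572332, at 6.21 and 6.401, was also in both WT lists, all 4 R232fs lists and both lists of Y287X clone 2. Among peaks of fold 5 or more, HA-only regions numbered 0 of 88 in R232fs, against 2.15% of all regions, 2 of 78 in Y287X, against 0.597%, and 1 of 65 in G365R, against 0.267%. TY1-only regions of G365R were 16 of 65 among these peaks, against 18.9%. In 8.23% of the 4339 cases of a list without a summit in a region, a peak of the list did overlap the region.

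**Figure D4:**
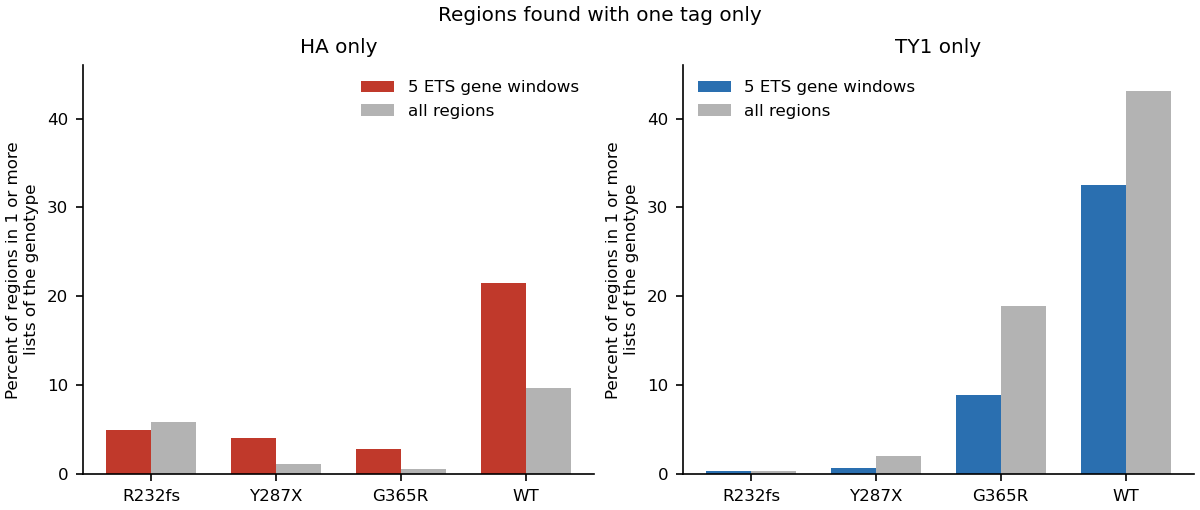
Percent of the regions of a genotype (vertical axis) found in every HA list and no TY1 list (left) or in every TY1 list and no HA list (right), for the 5 gene windows (coloured bars) and all regions (grey bars), with no error bars since each is a count. WT, with 1 list a tag where the mutants have 2, has the highest window bar on each side, 21.5% and 32.6% of its regions.

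Few regions separated the truncating genotypes from G365R and WT. None of the 437 was in all 8 R232fs and Y287X lists and in no G365R or WT list, against 0.176% of all regions. A looser pattern, 6 or more of those 8 lists and no other, held for 7 regions, against 1.38%: 3 in ETS1, 2 in FLI1 and 1 each in ETV6 and ERG. The reverse, all 6 G365R and WT lists and no R232fs or Y287X list, held for 1 region, in ELF1, against 0.252%. It was chr13:41593351-41593617, with folds of 4.61 and 4.74 in the G365R HA lists, 6.49 and 8.85 in the TY1 lists, and 6.26 and 9.19 in WT. No peak of a truncating clone overlapped it. No window region was in all 7 TY1 lists and no HA list, or the reverse, against 0.00419% and 0% of all regions.

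With at most 1 truncating list allowed, 3 regions joined it, 4 in all against 0.589%. At chr12:11931771-11932061 the G365R and WT folds were 6.16 to 8.33, and R232fs TY1 clone 1 had 12.9. At chr11:128444500-128445010 they were 4.603 to 7.62, against 4.703 in the same truncating list, and chr13:41558318-41558647 had Y287X TY1 clone 2 as its truncating list. At all 3 the exception was thus a list of wild-type protein.

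Taken per tag, 6 regions (1.64% of those with any HA summit) were in all 4 truncating HA lists and no G365R or WT HA list, against 6.03%, and 6 were in all 3 G365R and WT HA lists and no truncating HA list, against 0.913%. For TY1 the counts were 0 of 307, against 0.553%, and 7, against 3.01%. The 2 HA counts changed with the peaks used. Among peaks of fold 5 or more they were 7 of 100, against 6.15%, and 2 of 100, against 2.48%. With lists of equal length they were 2 of 239, against 1.93%, and 7 of 239, against 2.46%. The strongest of the first kind in FLI1 was chr11:128600993-128601267, at 5.08 and 5.301 in R232fs and 4.59 and 4.94 in Y287X, and in ETV6 chr12:11936787-11937093, at 6.61 and 2.64 and 3.27 and 4.33. Both were also in TY1 lists outside the truncating genotypes. The kind of list differed in the same way as these patterns, and its part in them was not tested.

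**Figure D5:**
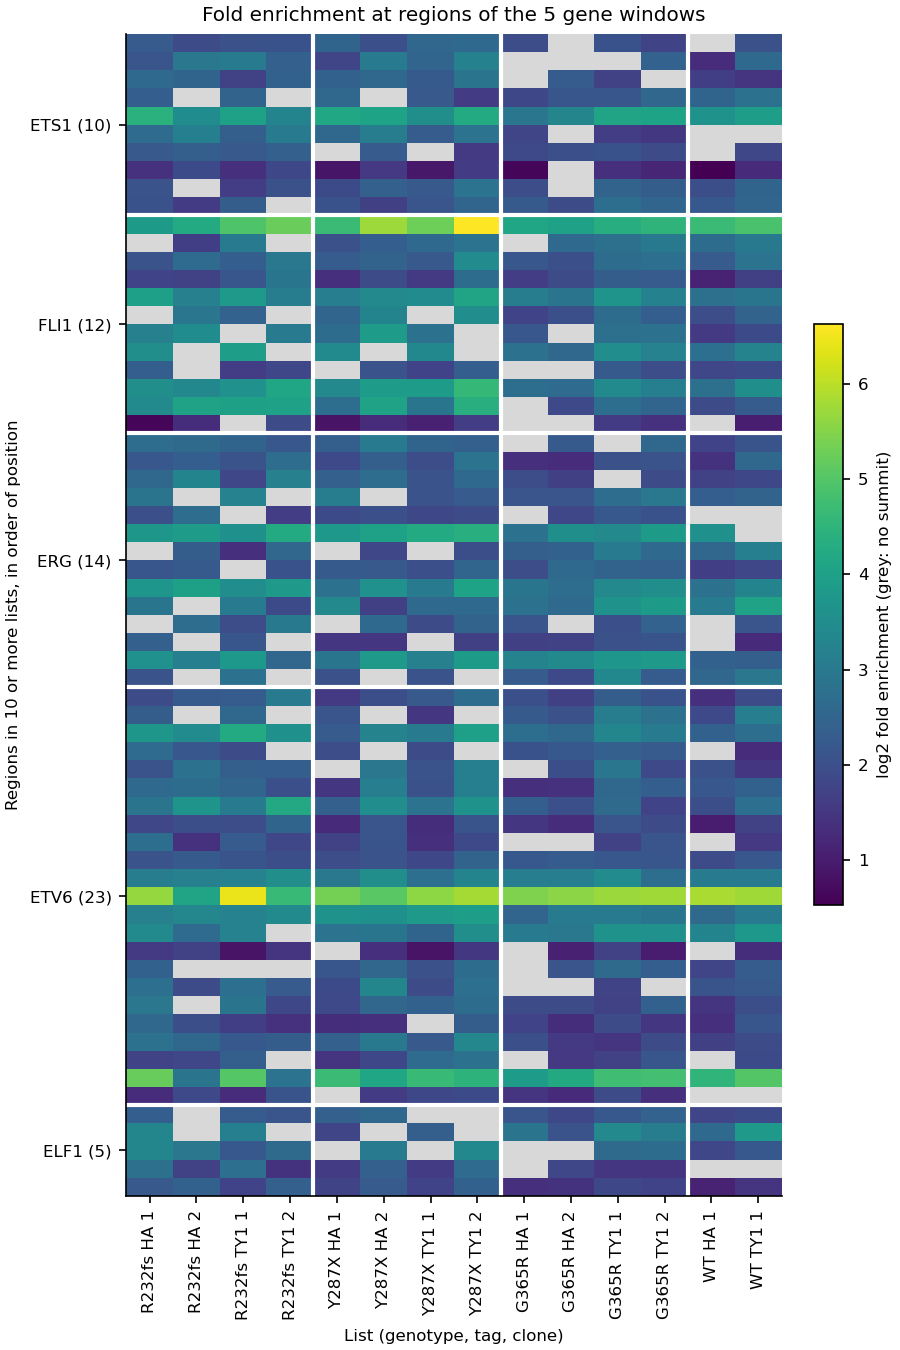
log2 fold enrichment at the 64 regions of the windows in 10 or more lists (vertical axis, by gene and position) in the 14 lists (horizontal axis), grey where a list has no summit. In 4 rows the grey cells are those of clone 2 of R232fs and Y287X, and the brightest cells are the leading ETV6 and FLI1 regions.

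Differences in rank between HA and TY1 lists, mutant against wild-type protein, were tested with limma on the normal scores of all 11291 shared regions. Benjamini-Hochberg adjustment was over these regions. Protein form and tag changed together in every mutant genotype, so their parts in a difference cannot be told apart. Without a term for clone no region of the genome passed an adjusted p of 0.05 for HA minus TY1 in R232fs, Y287X or G365R, or for the difference of the truncating genotypes from G365R, a background of 0%. At an unadjusted p under 0.05 there were 1367, 463, 589 and 1178 regions, with 2, 1, 1 and 0 of the 21 in the windows.

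With a clone term, which pairs the lists of a clone, 5 of the 21 were called in R232fs (23.8%), against 21.7% of all regions, a share near that of the genome. HA ranked higher at 3 and TY1 at 2, against 10.4% and 11.3%. The former were ETS1 chr11:128352396-128352812, by 0.63 ± 0.15 score units (SE, limma adjusted p = 0.024), at ELF1 chr13:41634782-41635103, by 0.60 ± 0.17 (adjusted p = 0.0418), and at ETV6 chr12:12047789-12048142, by 0.49 ± 0.11 (adjusted p = 0.0203). The regions with TY1 higher were both in FLI1. The leading one, chr11:128547991-128548269, had a difference of −0.45 ± 0.12 (adjusted p = 0.0299), and chr11:128586880-128587135 one of −0.92 ± 0.25 (adjusted p = 0.035). At the latter the fold was 3.38 and 3.302 with HA and 4.45 and 7.47 with TY1 in R232fs. Each direction held in 2 of 2 R232fs clones. At the ELF1 region HA ranked higher in all 7 clones, by 0.54 in WT, where both tags mark wild-type protein. The WT differences were 0.08 at the ETS1 region, −0.18 at the ETV6 region, and 0.05 and 0.10 at the FLI1 regions. None of the 21 was called without R232fs clone 2 (the lone clone then assumed to vary like the others), and 3 were without clone 1. These counts stood against 3.31% and 9.87% of all regions. With clone as a random effect 6 of the 21 were called, against 25.3% of all regions. The ETV6 call was then lost (adjusted p = 0.189), while ETV6 chr12:11802246-11802538 (−0.52 ± 0.15, adjusted p = 0.0265) and ERG chr21:39878620-39878892 (0.45 ± 0.14, adjusted p = 0.0376) were gained.

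In Y287X and G365R none of the 21 was called with the clone term, against 0.824% and 4.08% of all regions, and 5 of the 21 had an unadjusted p under 0.05 in each, against 21.8% and 22.2% of all regions. With clone as a random effect 1 of the 21 was called in Y287X, against 4.50% of all regions, and none in G365R, against 7.22%. The Y287X call was ETV6 chr12:11950202-11950555, with HA higher by 0.58 ± 0.15 (adjusted p = 0.043). HA was also higher there in G365R, by 0.51 ± 0.15 in the same fit (adjusted p = 0.0536), and in WT, by 0.38. The R232fs difference was 0.03 ± 0.15. At the ETS1 region the Y287X difference was 0.51 ± 0.15 (adjusted p = 0.113) and the G365R difference −0.30 ± 0.15 (adjusted p = 0.285). At the leading ETV6 region the 3 differences were −0.09 ± 0.09, −0.01 ± 0.09 and −0.07 ± 0.09 in R232fs, Y287X and G365R, the smallest SE of the leading regions, and the adjusted p was 0.501 or more.

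Whether the HA minus TY1 difference itself differed between the truncating genotypes and G365R was tested with the clone term as well. Of the 21, 3 were called (14.3%), against 17.1% of all regions, a share near that of the genome. The ETS1 region had a difference of 0.87 ± 0.19 (adjusted p = 0.0192), the second ETV6 region, chr12:12047789-12048142, one of 0.54 ± 0.14 (adjusted p = 0.0319), and the leading FLI1 region one of −0.51 ± 0.14 (adjusted p = 0.0449). At these regions HA ranked higher relative to TY1 at ETS1 and ETV6, and lower at FLI1, in truncating clones than in G365R clones. The kind of list differed between the same genotypes, so its part cannot be told apart. The WT cells, outside this test, had HA minus TY1 differences of 0.08 at ETS1, −0.18 at ETV6 and 0.05 at FLI1. Without G365R clone 1 none of the 21 was called, against 0.372% of all regions, and without clone 2 none, against 1.77%, so fewer were called over all regions too. With clone as a random effect 4 of the 21 were called, against 20.4% of all regions. The ETV6 call was lost (adjusted p = 0.256), while chr12:11802246-11802538 (−0.68 ± 0.19, adjusted p = 0.0229) and chr12:11918546-11919138 (1.12 ± 0.36, adjusted p = 0.0426), also in ETV6, were gained.

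Between clones, the mutant proteins of the truncating genotypes and of G365R were compared by their HA lists, and the wild-type proteins by their TY1 lists. In neither was any of the 21 called, against 9.54% of all regions with HA and 4.57% with TY1, while 3 and 4 of them had an unadjusted p under 0.05, against 29.7% and 25.1% of all regions. Without R232fs clone 1 the called regions were 3 and 6, against 23.6% and 23.4% of all regions, and without R232fs clone 2 they were 1 and 0, against 10.6% and 3.14%. The leading FLI1 region had an HA difference of −0.00352 ± 0.20 and a TY1 difference of 0.50 ± 0.20 (adjusted p = 0.151).

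When regions in 10 or more lists were tested, 2 of 58 were called with HA, against 17.5% of all regions. At both, only 1 of the 2 G365R HA lists had a summit, so the G365R arm was a single list assumed to vary like the other groups. At FLI1 chr11:128627172-128627516 the fold was 10.98 and 16.5 in R232fs HA and 6.62 and 16.6 in Y287X HA, against 3.696 in the G365R HA list that had it and 3.79 in WT (1.56 ± 0.38, adjusted p = 0.0198). The TY1 lists showed a gap too, with 15.8 and 16.2 in R232fs and 7.47 and 20.9 in Y287X, against 6.69 and 5.74 in G365R and 4.97 in WT, but it was not called (0.74 ± 0.30, adjusted p = 0.232). All truncating lists were above all G365R and WT lists at this region except Y287X HA clone 1, at 6.62 against 6.69 in G365R TY1 clone 1. The other called region was ETS1 chr11:128392284-128392579 (1.53 ± 0.42), with 2.62 and 3.71 in R232fs HA, 1.83 and 2.89 in Y287X HA and 1.52 in the G365R HA list that had it. By fold that G365R peak stood at percentile 0.43 of its list, near the bottom. The WT HA peak there stood at 0.1, and those of Y287X HA at 5.61 and 26.99.

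Over the 21 regions the fold with HA was lower than with TY1 on balance, as it was genome-wide. The median ratio of HA to TY1 was 0.944 and 0.923 in the R232fs clones, 0.878 and 0.772 in Y287X, 0.702 and 0.747 in G365R, and 0.785 in WT. Over all 11291 regions it was 0.913 and 0.775, 0.793 and 0.734, 0.647 and 0.728, and 0.719. By rank HA was the higher at 11 to 15 of the 21 regions in each clone, and the medians of the 21 rank differences were 0.034 to 0.281, against −0.004 to 0.017 over all regions.

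The leading regions of the 5 genes did not move as one across the 14 lists. Pearson's r of their scores was 0.63 for ETS1 with ETV6 and 0.54 for ERG with ELF1, and ran from −0.45 to 0.13 for the other 8 pairs, as a description over lists that share clones. Just inside the 10 window edges the nearest regions were in 1 to 14 lists, at median folds of 2.41 to 25.6. Just outside they were in 1 to 13, at 2.12 to 5.54. The widest held outside were chr11:128540905-128541453, near FLI1, in 13 lists, and chr13:41495816-41496096, near ELF1, in 11.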

How the data were processed

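RUNX1 binding was measured by ChIP-seq with anti-HA or anti-TY1 in 14 libraries. The 7 control samples of the series are not analysed here. The build was hg19 and the tools MACS2 2.2.7.1, Bowtie2 2.2.9 and CASAVA 1.8, per the submitters' processing notes. Settings of these tools are not stated in the sources used here. The authors deposited 1 narrowPeak list per library, not pooled, with a fold (a linear ratio), a −log10 p, a −log10 q, a score and the summit position of each peak. The lowest −log10 q of a deposited list was 1.30 to 1.32.

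Summits on 23 chromosomes were used, which left out 1.41% to 2.17% of a list. Each summit was extended by 100 bp on each side, overlapping stretches of all lists were merged into regions, and regions with a summit in a gene window were taken for that gene. Coordinates are hg19 counted from 1. Folds of separate lists have no common scale, so folds set side by side across lists are descriptions. For the tests, fold at the 11291 regions in all 14 lists was ranked within each list and converted to normal scores. These entered limma 3.58.1 in R 4.3.3 (8 groups, trend, 6 residual degrees of freedom, 3 with the clone term, adjusted p of 0.05). With the clone term, p-values weigh a difference against the spread of HA minus TY1 differences between the clones of a genotype. Without it they weigh it against the spread between the lists of a group, and the HA and TY1 lists of a clone are taken as independent. HA and TY1 lists with the same number come from 1 clone, per the names in the file headers, so numbers pair the lists. Deviations of such pairs from group means had r of 0.792 (R232fs), 0.702 (Y287X) and 0.504 (G365R). In simulated R232fs scores over 11291 regions, 74, 71 and 55 regions were shifted by 0.5, 1 and 1.5. All regions had the same spread between clones and within a clone. The fit with the clone term recovered 12.2%, 80.3% and 100% of these shifts, and the fit without it recovered 0%. In the real R232fs scores 21.7% of regions were called with the clone term, so these rates cannot be carried over to the real test.

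The members and lists were chosen with earlier results of these data known. Regions were named by rule: per gene the leading regions in all 14 lists, the strongest HA-only or TY1-only region of a genotype, called regions, regions that separate truncating genotypes from G365R and WT, and those at window edges. Python 3.11.15, numpy 2.4.6, pandas 2.3.3, scipy 1.17.1 and matplotlib 3.10.9 were used. Alternatives were −log10 p ranks, lists cut to 30563 peaks, regions in 10 or more lists, windows of 250 bp, fold 5 or more, the clone term, and each clone left out. Those chosen after seeing the data were the clone term with each clone left out, and presence by any overlapping peak.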

Additional observations from a re-analysis of the deposited data

Results flagged for a closer look

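At 3 regions the HA minus TY1 difference in rank differed between the truncating genotypes and G365R by limma's test of that difference with the clone term, among 21 tested in the windows and with 17.1% of all regions called. At ETS1 chr11:128352396-128352812 the difference of differences was 0.874 score units, HA ranking higher in both R232fs and both Y287X clones and lower in both G365R clones. At ETV6 chr12:12047789-12048142 it was 0.536. At FLI1 chr11:128547991-128548269 it was −0.507. None of the 3 was called without the clone term or with either G365R clone left out, and the ETV6 region was not called with clone as a random effect; the kind of list differed between the same genotypes, so that its part in them cannot be told apart.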

How the results depend on the processing

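The pairing of lists by clone gave 5 called regions of the 21 in place of 0 for HA minus TY1 in R232fs, and 3 in place of 0 for truncating minus G365R. Over all regions it gave 21.7% and 17.1% in place of 0%. That block, with clone as a fixed term, changed no other window count of the 4 HA minus TY1 comparisons. Clone as a random effect gave 6 in R232fs, 1 in Y287X, 0 in G365R and 4 for truncating minus G365R. These stood against 25.3%, 4.50%, 7.22% and 20.4% of all regions. Both comparisons between clones had 0, against 8.67% of all regions with HA and 3.35% with TY1. With the block and 1 clone left out, the counts for R232fs and for truncating minus G365R changed in the windows and over all regions. For truncating minus G365R, ranks of −log10 p gave 1 called region with HA and 1 with TY1, against 39.6% and 24.3% of all regions. Regions in 10 or more lists gave 2 with HA, against 17.5%. Leaving out 1 clone changed the HA and TY1 counts of this comparison in the windows and over all regions. With lists of equal length the HA-only regions of R232fs, Y287X and G365R became 3, 6 and 13, beside 2.79%, 1.96% and 6.39% of all regions, and the TY1-only regions 3, 1 and 6, against 2.36%, 2.87% and 6.79%. With fold 5 or more, HA-only regions were 0, 2 and 1, and TY1-only regions 0 in R232fs and 1 in Y287X, against 2.29% and 4.04%. TY1-only regions of G365R were then 16 of 65 (24.6%), against 18.9% of all regions, where the full lists had 8.92%, against 18.9%. Where any overlapping peak counted, R232fs had 25 HA-only and 0 TY1-only regions of 297. Y287X then had 13 and 4 of 302, and G365R 3 and 25 of 230. The share over all regions was not computed, so these counts have no background beside them. Windows of 250 bp gave 1 TY1-only region in Y287X, against 1.96%. The HA minus TY1 difference per 10000 peaks in R232fs was 1.96 with lists of equal length and 4.84 with fold 5 or more, and ran from −0.515 to 0.543 with 1 clone left out, below 0 without clone 2. In Y287X it was 5.24 with lists of equal length and 1.48 to 3.48 with 1 clone left out. In G365R it was 7.36 with lists of equal length, 0.533 with fold 5 or more and 8.40 to 10.7 with 1 clone left out. The causes of these changes were not tested. Depth is unknown for all lists.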
